A study of Mus musculus with 9 samples.

Results

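The carnitine shuttle and carnitine synthesis set holds 10 mouse genes: Crat, Crot, Cpt1a, Cpt1b, Cpt2, Slc25a20, Slc22a5, Slc22a21, Bbox1 and Tmlhe. Members were found by gene symbol among the probe sets annotated to a single gene, and each gene was represented by its probe set with the highest mean signal over the arrays. Of the 10 genes, 9 had such a probe set, out of 18193 genes on the array, and 8 were tested, out of 12466 genes with a probe set bright enough to test. The representing probe set of each of these 8 lay above the brightness filter, a signal of 15.6, on all 9 arrays. None of these sets was therefore kept through the group in which it was high. Cpt1b, the muscle-type carnitine palmitoyltransferase, had no probe set of its own and is given no value here. Slc22a21, a carnitine transporter related to Slc22a5, was below the filter on all 9 arrays. Its signals were 8.57, 1.16 and 5.97 with permethrin, 6.59, 9.99 and 7.78 with clofibrate, and 6.17, 10.7 and 7.71 in controls, too dim to compare.

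The arrays measured liver RNA of female Crlj:CD1(ICR) mice, an outbred stock, with 3 mice and 3 arrays in each of 3 groups. The mice were bought at 9 weeks of age, kept in quarantine for 1 week and then fed for 2 weeks. A first group received permethrin, a pyrethroid insecticide, at 5000 ppm in the diet, and another received clofibrate, a fibrate drug, also at 5000 ppm. The control group received the same diet with 0 ppm. No genetic alteration is named for any group. Whole liver was used, so that fewer cells of a type and less RNA per cell cannot be told apart in any value below.

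Carnitine carries fatty acids across the inner mitochondrial membrane as acylcarnitines. Carnitine palmitoyltransferase 1 makes the long-chain acylcarnitine at the outer membrane, a carrier exchanges it for free carnitine at the inner membrane, and carnitine palmitoyltransferase 2 returns the fatty acid to coenzyme A for oxidation. Liver is also a main site of carnitine synthesis, which starts from trimethyllysine. Clofibrate belongs to the drugs that activate PPAR alpha, a nuclear receptor whose known targets in rodent liver include genes of this shuttle.

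Promoters are shown for 3 members: Slc25a20 and Cpt2, which were called higher in both treated groups, and Crot, which was called with clofibrate but not with permethrin. They are the members so called whose start in the RefSeq promoter table, assembly GRCm38.p6, is also the annotated edge of the gene. Each is the 250 bases before that start, read 5′ to 3′ on the gene's own strand. The Slc25a20 window is chr9:108661886-108662135 on the plus strand, that of Cpt2 is chr4:107923590-107923839 on the minus strand, and that of Crot is chr5:8997147-8997396 on the minus strand. Capitals mark the GC box, GGGCGG or its reverse complement CCGCCC.
Slc25a20: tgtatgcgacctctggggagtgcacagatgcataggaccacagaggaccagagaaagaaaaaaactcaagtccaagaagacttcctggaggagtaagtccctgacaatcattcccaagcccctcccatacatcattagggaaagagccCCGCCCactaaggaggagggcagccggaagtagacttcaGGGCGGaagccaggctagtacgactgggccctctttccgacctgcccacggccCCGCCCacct
Cpt2: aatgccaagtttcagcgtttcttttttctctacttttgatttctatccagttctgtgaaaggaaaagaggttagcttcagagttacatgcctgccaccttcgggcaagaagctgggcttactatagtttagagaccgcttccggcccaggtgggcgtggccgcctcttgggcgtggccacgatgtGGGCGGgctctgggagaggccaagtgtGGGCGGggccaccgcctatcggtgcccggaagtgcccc
Crot: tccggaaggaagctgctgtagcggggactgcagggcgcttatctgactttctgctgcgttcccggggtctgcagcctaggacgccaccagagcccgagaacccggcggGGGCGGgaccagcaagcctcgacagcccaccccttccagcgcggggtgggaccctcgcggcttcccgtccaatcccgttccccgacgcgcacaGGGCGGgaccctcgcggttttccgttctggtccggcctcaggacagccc

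Of the 10 members, 6 matched the promoter table: Slc22a5, Cpt1a, Slc25a20, Cpt2, Crot and Bbox1. Counted on both strands, the GC box stood 3 times in the windows of Slc22a5 and Slc25a20, 2 times in those of Cpt1a, Cpt2 and Crot, and 0 times in that of Bbox1. It was present in 32.7% of the 32851 promoters of the same length in the table. The nuclear receptor core AGGTCA or TGACCT stood 1 time in the Cpt1a window and 0 times in the other 5, and in 14% of all promoters. A relaxed direct repeat of this core, spaced by 1 base, was in none of the 6 windows and in 0.338% of all. CCAAT or ATTGG stood 1 time each in the Cpt1a and Crot windows and in 33.8% of all. Such matches describe letters in a short window and are not binding sites. None of these matches overlapped a match of another motif.

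Signals are linear and in arbitrary units, scaled by the authors so that every array has the same trimmed mean. A probe set's level cannot be set against that of another gene, so each gene is compared only with itself across groups. Changes are differences of log2 signal after adding an offset of 3.35, with the standard error, and adjusted p-values come from limma over all 24546 probe sets tested. A gene is called when its adjusted p is under 0.05. The plot of member signals by array shows every value behind the results.

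**Figure D1:**
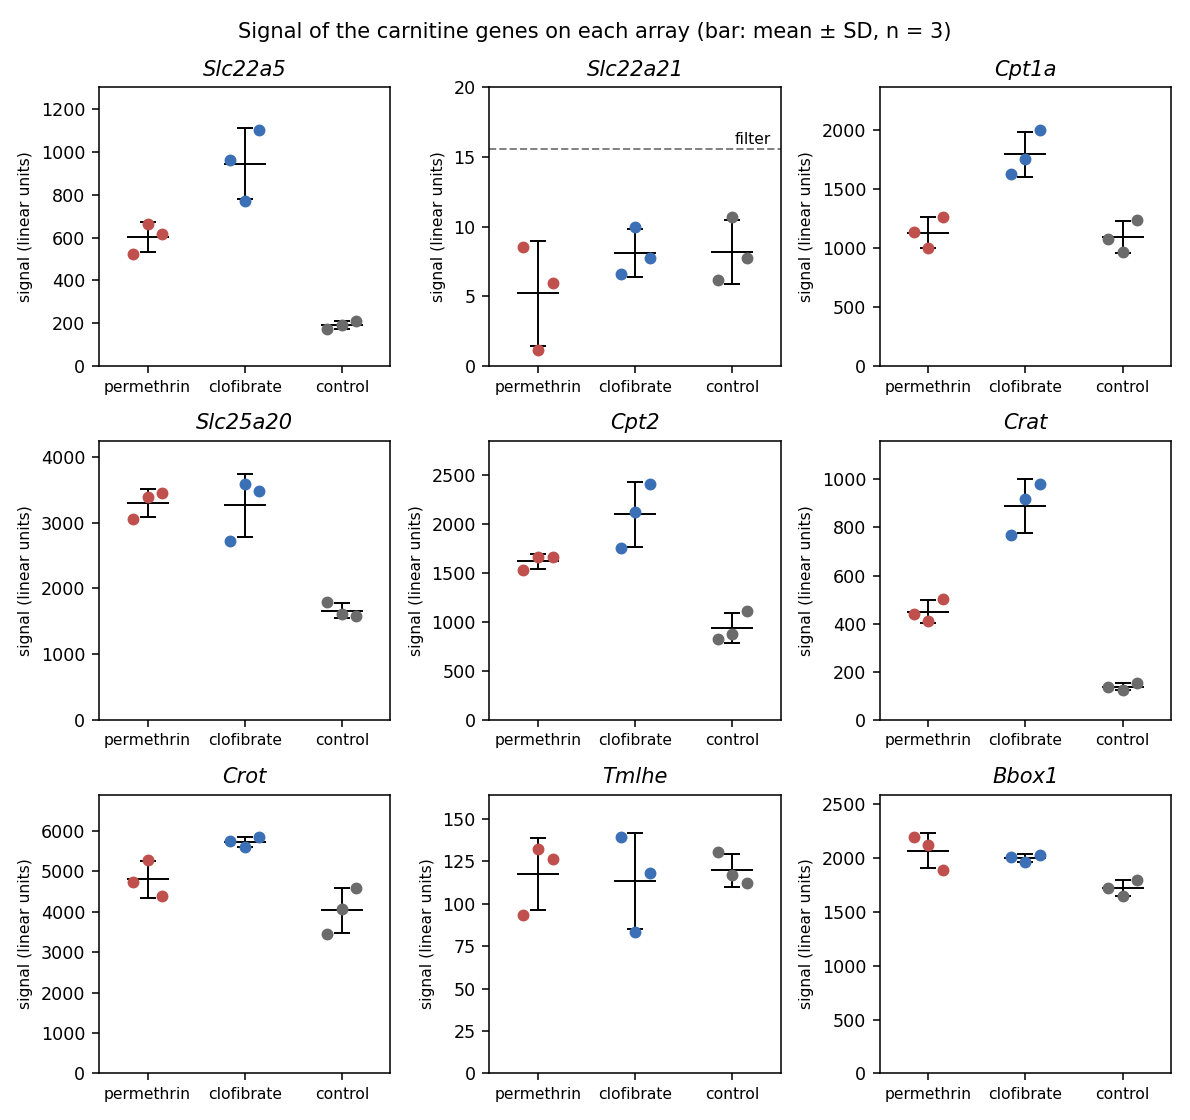
Signal of the 9 members with a probe set of their own, 1 panel per gene, on linear axes in the authors' scaled units. Points are single arrays, 3 per group, in the order permethrin, clofibrate, control, and bars give the mean ± SD. For Crat, Slc22a5, Slc25a20, Cpt2 and, by a small margin, Bbox1 every treated array lies above every control array, while the Tmlhe groups overlap. The dashed line in the Slc22a21 panel is the brightness filter of 15.6.

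Uptake of carnitine into the cell comes before all other steps. Slc22a5 encodes the sodium-dependent carnitine transporter of the plasma membrane. Its signals were 524, 666 and 619 with permethrin, 963, 771 and 1104 with clofibrate, and 175, 190 and 209 in controls. The 3 groups were fully apart, with clofibrate highest and controls lowest. Slc22a5 rose by 1.64 ± 0.15 on the log2 scale with permethrin (limma adjusted p = 0.000244) and by 2.27 ± 0.15 with clofibrate (limma adjusted p = 1.35e-05). Between the treated groups the difference, permethrin minus clofibrate, was -0.64 ± 0.15, with a 95% interval of -0.97 to -0.31 and a limma adjusted p of 0.102.

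A second Slc22a5 probe set averaged 125 with permethrin, 256 with clofibrate and 49.1 in controls. It gave a log2 change of 1.29 with permethrin (limma adjusted p = 0.000763) and of 2.30 with clofibrate (limma adjusted p = 5.43e-06). On this probe set the difference between the treated groups was -1.02 ± 0.14 and passed the test (limma adjusted p = 0.00869). Both Slc22a5 probe sets thus had a lower mean with permethrin than with clofibrate, and only the dimmer of the 2 was called between permethrin and clofibrate.

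At the entry into the mitochondrion, a rise was called with clofibrate and not with permethrin. Cpt1a encodes the liver form of carnitine palmitoyltransferase 1, the enzyme that malonyl-CoA inhibits and that sets the pace of the shuttle. Its signals were 1130, 997 and 1260 with permethrin, 1626, 1749 and 1998 with clofibrate, and 1072, 964 and 1239 in controls. The permethrin and control arrays were intermingled, and all 3 clofibrate arrays lay above them. Cpt1a rose by 0.71 ± 0.13 on the log2 scale with clofibrate (limma adjusted p = 0.00859), and this call was lost without the intensity trend in the variance model (limma adjusted p = 0.0529). With permethrin the log2 difference was 0.05 ± 0.13, with a 95% interval of -0.24 to 0.34 and a limma adjusted p of 0.912.

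The direct comparison of the treated groups for Cpt1a gave a log2 difference of -0.67 ± 0.13, with a 95% interval of -0.95 to -0.38 and a limma adjusted p of 0.0538. This value lay just outside the threshold, and it was inside under 5 of 21 other settings, with quantile normalization for example (limma adjusted p = 0.0355). The other Cpt1a probe sets are x_at sets, a design that can cross-hybridize. Against controls, the second Cpt1a probe set gave log2 differences of 0.24 with permethrin (limma adjusted p = 0.48) and 0.87 with clofibrate (limma adjusted p = 0.0032). A further, noisier Cpt1a probe set gave -0.11 with permethrin (limma adjusted p = 0.904) and 0.89 with clofibrate (limma adjusted p = 0.0805).

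The inner membrane steps rose with both compounds. Slc25a20 encodes the carrier that exchanges acylcarnitine for carnitine. Its signals were 3052, 3384 and 3457 with permethrin, 2715, 3595 and 3476 with clofibrate, and 1798, 1603 and 1587 in controls. The treated groups overlapped each other, and neither overlapped the controls. Slc25a20 rose 1.98-fold with permethrin, a log2 change of 0.99 ± 0.12 (limma adjusted p = 0.00185), and 1.95-fold with clofibrate, a log2 change of 0.96 ± 0.12 (limma adjusted p = 0.000817).

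Between permethrin and clofibrate the Slc25a20 difference was 0.02 ± 0.12 on the log2 scale, with a 95% interval of -0.24 to 0.28. Its second probe set gave log2 changes of 0.91 with permethrin (limma adjusted p = 0.00316) and 1.25 with clofibrate (limma adjusted p = 0.000163). There the difference between the treated groups was -0.35, with a 95% interval of -0.61 to -0.09 and a limma adjusted p of 0.266. The Slc25a20 probe sets were therefore both called against controls, and neither was called between the treatments.

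Cpt2 encodes carnitine palmitoyltransferase 2, which re-forms the acyl-CoA inside the mitochondrion. Its signals were 1529, 1658 and 1659 with permethrin, 1757, 2118 and 2412 with clofibrate, and 824, 876 and 1110 in controls. All clofibrate arrays lay above all permethrin arrays, and these above all controls. Cpt2 rose 1.74-fold with permethrin, by 0.80 ± 0.14 on the log2 scale (limma adjusted p = 0.0169), and 2.23-fold with clofibrate, by 1.16 ± 0.14 (limma adjusted p = 0.000738). The difference between permethrin and clofibrate, -0.36 ± 0.14, had a 95% interval of -0.67 to -0.06 and a limma adjusted p of 0.329.

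The permethrin call of Cpt2 depended on single arrays. Without control replicate 1 its log2 change was 0.71 (limma adjusted p = 0.0902), and without control replicate 2 it was 0.75 (limma adjusted p = 0.0648). Without permethrin replicate 2 it was 0.78 (limma adjusted p = 0.0568), and without permethrin replicate 3 also 0.78 (limma adjusted p = 0.0732). A dimmer Cpt2 probe set, also an x_at set, averaged 51.1 with permethrin, 46.7 with clofibrate and 40.3 in controls. It was not called in either treated group (limma adjusted p = 0.707 with permethrin and 0.91 with clofibrate).

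The acyltransferases for shorter chains differed from each other. Crat encodes carnitine acetyltransferase, which moves acetyl and other short acyl groups between coenzyme A and carnitine. Its signals were 439, 410 and 501 with permethrin, 767, 920 and 983 with clofibrate, and 136, 122 and 152 in controls. The groups were fully apart, clofibrate highest and controls lowest. Crat rose by 1.69 ± 0.14 on the log2 scale with permethrin (limma adjusted p = 0.000108) and by 2.67 ± 0.14 with clofibrate (limma adjusted p = 1.54e-06). On the brightest probe set of each gene these were the largest changes among the tested members, by a margin over Slc22a5 that is within the standard errors for permethrin, and the other Crat probe sets gave smaller changes than Slc22a5.

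Crat was the only tested member called between the treated groups, 1.97-fold lower with permethrin than with clofibrate, a log2 difference of -0.98 ± 0.14 (limma adjusted p = 0.011). Without clofibrate replicate 3 the difference was -0.90 and no longer passed (limma adjusted p = 0.079). The other Crat probe sets were not called there. The x_at set, a design that can cross-hybridize, averaged 385 with permethrin, 422 with clofibrate and 174 in controls, with a difference between the treated groups of -0.11 and a 95% interval of -0.51 to 0.29 (limma adjusted p = 0.853). The dimmest set averaged 37.6 with permethrin, 49.3 with clofibrate and 15.05 in controls, with a difference of -0.36 (limma adjusted p = 0.704).

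Against controls, the x_at set of Crat changed by 1.15 on the log2 scale with permethrin (limma adjusted p = 0.00977) and by 1.26 with clofibrate (limma adjusted p = 0.00215). The dimmest Crat set gave 1.24 with permethrin (limma adjusted p = 0.0859) and 1.604 with clofibrate (limma adjusted p = 0.0129). Of its control signals, 7.32, 14.1 and 23.7, only the last lay above the filter of 15.6. This set was thus tested only through the treated arrays, and its changes are a description. All 3 sets were higher in treated groups on average, the dimmest as a description only, with sizes that depended on the probe set.

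Crot encodes carnitine octanoyltransferase, the peroxisomal enzyme that exports medium-chain products of peroxisomal oxidation as acylcarnitines. Its signals were 4723, 5280 and 4386 with permethrin, 5755, 5592 and 5838 with clofibrate, and 3445, 4064 and 4578 in controls. The clofibrate arrays lay above all others, and the permethrin and control arrays overlapped. Crot rose 1.43-fold with clofibrate, by 0.52 ± 0.11 on the log2 scale (limma adjusted p = 0.0206). With permethrin its log2 difference was 0.26 ± 0.11, with a 95% interval of 0.01 to 0.50 and a limma adjusted p of 0.34. The difference between permethrin and clofibrate was -0.26 ± 0.11 (limma adjusted p = 0.381).

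The clofibrate call of Crot was lost without control replicate 1, where the log2 change was 0.41 (limma adjusted p = 0.085), and without control replicate 2, where it was 0.53 (limma adjusted p = 0.0607). It was also lost without clofibrate replicate 3, at 0.50 (limma adjusted p = 0.0836), and without the brightness filter, at 0.52 (limma adjusted p = 0.0577).

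Neither gene of carnitine synthesis was called on its brightest probe set. Tmlhe encodes the mitochondrial hydroxylase of trimethyllysine, the opening step. Its signals were 93.4, 132 and 126 with permethrin, 139, 83.3 and 118 with clofibrate, and 131, 117 and 112 in controls, so all 3 groups overlapped. Its log2 difference was -0.04 ± 0.20 with permethrin, with a 95% interval of -0.48 to 0.40 (limma adjusted p = 0.956), and -0.10 ± 0.20 with clofibrate, with an interval of -0.54 to 0.34 (limma adjusted p = 0.844). The other 2 tested Tmlhe probe sets lay between 0.03 and 0.12 in both comparisons.

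Bbox1 encodes gamma-butyrobetaine hydroxylase, the last step of synthesis. Its signals were 2194, 2125 and 1889 with permethrin, 2013, 1963 and 2029 with clofibrate, and 1720, 1648 and 1801 in controls. Every treated array lay above every control array, by a small margin. The log2 difference was 0.26 ± 0.09 with permethrin, with a 95% interval of 0.06 to 0.46 (limma adjusted p = 0.224), and 0.22 ± 0.09 with clofibrate, with an interval of 0.01 to 0.42 (limma adjusted p = 0.227). A second Bbox1 probe set averaged 463 with permethrin, 553 with clofibrate and 366 in controls, and was called higher with clofibrate (log2 change 0.58, limma adjusted p = 0.0426) but not with permethrin (0.32, limma adjusted p = 0.372).

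With the arrays scaled to the hybridization controls, transcripts added in fixed amounts, the first Bbox1 probe set was called with clofibrate too, at 0.55 (limma adjusted p = 0.0411). Under that scaling the median gene stood at 0.29 in the same comparison.

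**Figure D2:**
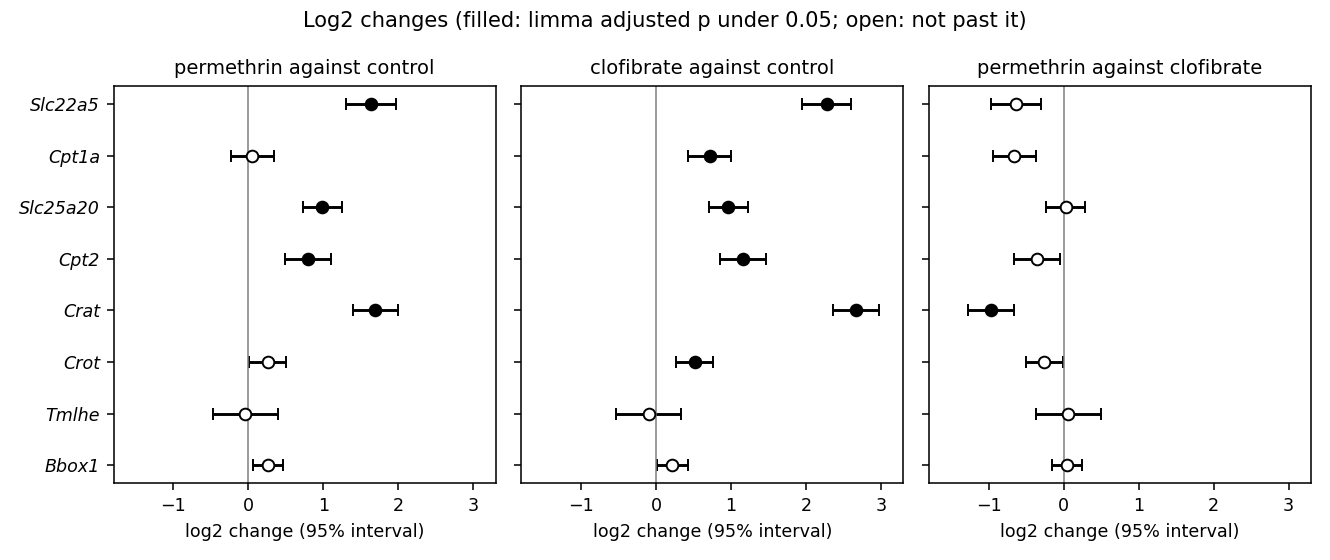
Log2 change of the 8 tested members with 95% intervals, with 1 panel for each treated group set against controls and a last panel for permethrin over clofibrate. Filled points passed an adjusted p of 0.05: 4 in the first panel, 6 in the second and 1, Crat, in the third.

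Of the 8 tested members, 4 were called higher and 0 lower with permethrin against controls, where 1.28% of all 12466 genes were called higher and 0.85% lower. With clofibrate 6 were called higher and 0 lower, where 3.22% of all genes were called higher and 3.8% lower. The median log2 change of the members was 0.53 with permethrin and 0.84 with clofibrate, and that of all genes was -0.04 in each. These 2 comparisons share the control arrays. Slc22a5, Slc25a20, Cpt2 and Crat were called in both, Cpt1a and Crot were called with clofibrate and not with permethrin, and Tmlhe and Bbox1 in neither. Treated and control arrays did not overlap for 5 members with permethrin, all higher, against 9.53% of all genes, and for 7 with clofibrate, against 11.6%.

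Between permethrin and clofibrate, 1 member was called lower and 0 higher, where 0.265% of all genes were called lower and 0.473% higher. Over all probe sets this balance depended on the scaling, with 81 higher and 55 lower as analysed, and 16 higher and 64 lower when arrays were scaled to the hybridization controls. The median member difference was -0.31, and that of all genes -0.01. Non-overlap with permethrin lower was seen for 5 members, Slc22a5, Cpt1a, Cpt2, Crat and Crot, against 9.02% of all genes. The remaining 3, Slc25a20, Tmlhe and Bbox1, had overlapping treated groups. For Cpt1a and Crot, which were called in clofibrate alone, the difference between treatments was itself not called, so a difference in response is not shown by their calls.

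**Figure D3:**
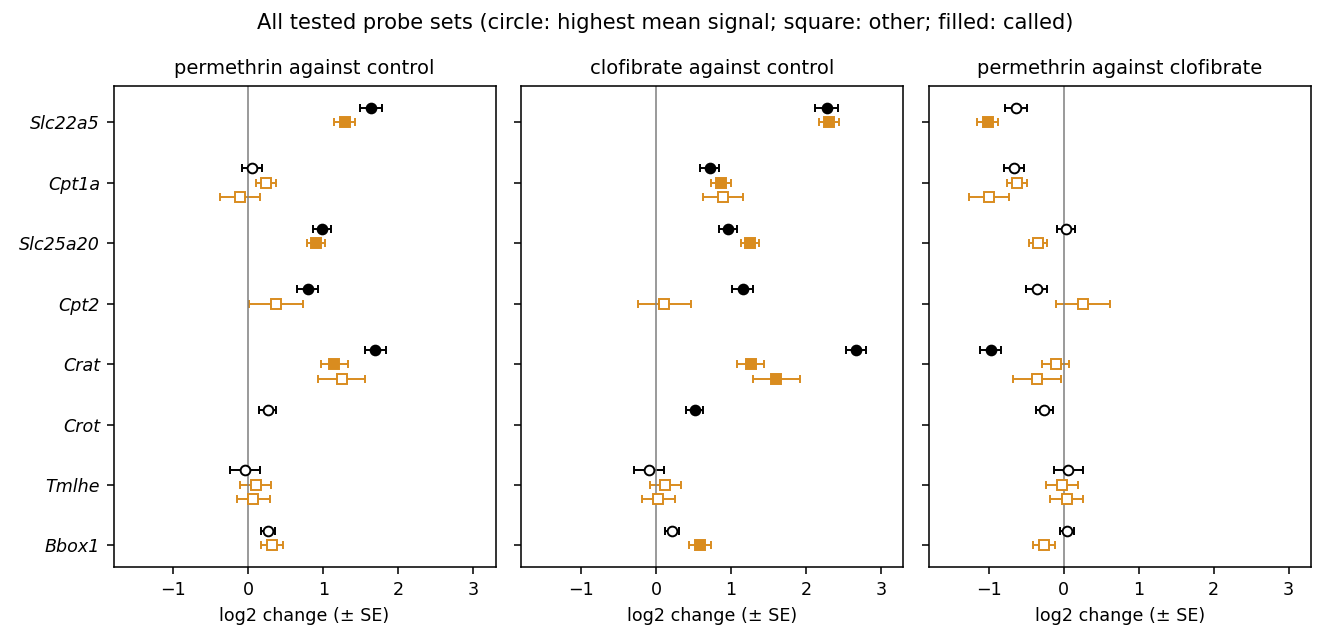
Log2 change ± SE of every tested probe set of the members, in the 3 comparisons. Circles mark the probe set with the highest mean signal of a gene and squares its others, and filled symbols passed an adjusted p of 0.05. The Crat and Slc22a5 sets differ in their distance between the treatments, from -0.11 to -0.98 for Crat and from -0.64 to -1.02 for Slc22a5.

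The members have 21 probe sets of their own, of which 18 were tested. The plot of single probe sets shows where the sets of a gene differ. For Slc22a5 and Slc25a20 every set was called against controls in both treated groups. For Cpt1a and Cpt2 the dimmest or noisiest set missed the threshold in at least 1 comparison that the brightest passed. For Crat the dimmest set missed it with permethrin against controls. Between the treatments both other Crat sets missed it, the x_at set with a difference of -0.11 (limma adjusted p = 0.853).

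Within each array, the signals of Cpt2 and Slc25a20 were set against that of Cpt1a to see whether steps of the shuttle changed equally. Each gene was taken on its brightest probe set, and ratios on other sets were not computed. The choice matters, because with clofibrate the dimmer Cpt2 set changed by 0.11 on the log2 scale, against 1.16 on the brightest. The second Slc25a20 set changed by 1.25 there, against 0.96. The level of such a ratio carries no meaning, and only its difference between groups is given. The log2 ratio of Cpt2 to Cpt1a was higher by 0.75 with permethrin and by 0.44 with clofibrate than in controls, and higher by 0.30 with permethrin than with clofibrate, with no overlap of groups in any of the 3. The ratio of Slc25a20 to Cpt1a was higher by 0.94 with permethrin than in controls and by 0.69 than with clofibrate, without overlap. With clofibrate against controls it differed by 0.25, and the arrays overlapped. In exact two-sided permutation tests of 3 against 3 arrays, the 5 without overlap had p = 0.1 and the other p = 0.2. After adjustment over 6 tests these were 0.12 and 0.2. The smallest p this design allows is 0.1, so none could pass 0.05 and the tests decide nothing. The ratios restate changes given above for the same arrays. How often the ratios of other gene pairs lack overlap was not computed.

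Genes were also ranked by how closely their log2 signals followed a member over the 9 arrays, which share the 3 treatment groups, so that such a likeness is a description. For Crat the highest Pearson correlations belonged to Eci2 (0.991), Tpm1 (0.990) and Eci1 (0.989). Eci1 and Eci2 encode enoyl-CoA isomerases of mitochondria and peroxisomes, and Tpm1 encodes a tropomyosin. Eci2 averaged 2366 ± 85.1 with permethrin, 3389 ± 400 with clofibrate and 1292 ± 77.0 in controls (SD, n = 3 each), the same order of groups as Crat. For Slc22a5 they were Acot1 (0.990), an acyl-CoA thioesterase, Vnn1 (0.990), a pantetheinase, and Lin7c (0.980), a scaffold protein. For Cpt1a they were Aig1 (0.969), Nfe2l1 (0.968) and Mrpl54 (0.967). Aig1 averaged 136 ± 13.1 with permethrin, 222 ± 27.0 with clofibrate and 126 ± 24.1 in controls, and so, like Cpt1a, was highest with clofibrate.

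Of 9 other genes of carnitine transport and synthesis listed, 5 were tested. With permethrin 0 were called, where 1.28% of all genes were called higher and 0.85% lower. With clofibrate 1 gene was called lower, where 3.8% of all genes were. That gene was Shmt2, a mitochondrial serine hydroxymethyltransferase. On an x_at set, a design that can cross-hybridize, it averaged 1838 ± 236 with permethrin, 1164 ± 37.7 with clofibrate and 1704 ± 46.5 in controls. It fell by 0.55 ± 0.10 on the log2 scale with clofibrate (limma adjusted p = 0.0111), and permethrin exceeded clofibrate by 0.65 (limma adjusted p = 0.0207). The list had 0 calls with clofibrate against controls without clofibrate replicate 3, and 0 between the treatments without permethrin replicate 2, clofibrate replicate 2 or clofibrate replicate 3. Aldh9a1, the aldehyde dehydrogenase of carnitine synthesis, averaged 4774 ± 614 with permethrin, 4511 ± 673 with clofibrate and 4632 ± 188 in controls, with limma adjusted p = 0.934 and 0.881 for the treated groups against controls. The median log2 change of the 5 genes was -0.02 with permethrin and -0.43 with clofibrate.

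The list of genes around malonyl-CoA, the inhibitor of Cpt1a, also holds Prkaa, Prkab and Prkag genes and Stk11, which were called in no comparison. Of 10 tested, 0 were called with permethrin and 3 were higher with clofibrate, against 1.28% and 3.22% of all genes called higher. An unadjusted limma p under 0.05 was reached by 3 with permethrin and 6 with clofibrate, against 1968 and 2624 of all 12466 genes. Between the treatments 0 were called, with 3 at an unadjusted p under 0.05, against 1624 of all genes. Acacb, an acetyl-CoA carboxylase of the mitochondrial surface, rose by 1.21 ± 0.31 with clofibrate (limma adjusted p = 0.0478). Acaca, the cytosolic acetyl-CoA carboxylase, rose by 0.73 ± 0.19 (limma adjusted p = 0.046). Mlycd, malonyl-CoA decarboxylase, which degrades malonyl-CoA, averaged 374 ± 14.5 with permethrin, 533 ± 51.5 with clofibrate and 313 ± 27.7 in controls, and rose by 0.76 ± 0.12 with clofibrate (limma adjusted p = 0.00349). The count of 3 was 1 with quantile normalization, and 1 also when control replicate 1, control replicate 3, clofibrate replicate 2 or clofibrate replicate 3 was left out. With permethrin the log2 differences were 0.63 for Acacb, 0.40 for Acaca and 0.26 for Mlycd (limma adjusted p = 0.413, 0.381 and 0.372).

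Long-chain acyl-CoA synthetases supply the substrate of Cpt1a. Of 4 tested, 0 were called with permethrin, with 1 at an unadjusted limma p under 0.05, against 1968 of all 12466 genes. With clofibrate 3 were called higher, where 3.22% of all genes were. These were Acsl3 (1.16, limma adjusted p = 0.0143), Acsl4 (0.82, limma adjusted p = 0.00915) and Acsl5 (0.51, limma adjusted p = 0.0381). Between the treatments 0 synthetases were called, with 2 at an unadjusted p under 0.05, against 1624 of all 12466 genes. The clofibrate count was 1 without control replicate 1, control replicate 3 or clofibrate replicate 3. Acsl5 averaged 3924 ± 220 with permethrin, 4668 ± 857 with clofibrate and 3245 ± 38.6 in controls. Acsl1 had no probe set of its own and was not analysed here.

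Mitochondrial beta-oxidation, which uses the acyl-CoA that Cpt2 releases, had 14 tested genes, of which 4 were higher with permethrin and 8 with clofibrate, and 0 lower. Of all genes, 1.28% were called higher with permethrin and 3.22% with clofibrate. The permethrin count was 1 without control replicate 1 or with median centring, and 2 without permethrin replicate 2 or permethrin replicate 3. Eci1 averaged 2368 ± 184 with permethrin, 4158 ± 661 with clofibrate and 1196 ± 87.8 in controls. It rose by 0.98 with permethrin (limma adjusted p = 0.0026) and by 1.78 with clofibrate (limma adjusted p = 1.98e-05). Acadl, the long-chain acyl-CoA dehydrogenase, rose by 0.59 with permethrin (limma adjusted p = 0.00891) and by 1.07 with clofibrate (limma adjusted p = 9.5e-05). Hadhb, the thiolase subunit of the trifunctional protein, was read from an x_at set, which can cross-hybridize. It rose by 1.03 with clofibrate (limma adjusted p = 0.00141), against 0.41 with permethrin (limma adjusted p = 0.21). The difference between the treatments, -0.62, was not called (limma adjusted p = 0.0804). Between the treatments 2 genes were called, both lower with permethrin, where 0.265% of all genes were. These were Eci1 (-0.80, limma adjusted p = 0.0178) and Hadha, the other subunit, named after its values were seen (-0.66, limma adjusted p = 0.0432). That count of 2 was 0 or 1 with 8 of the 9 arrays left out in turn, the exception being clofibrate replicate 1.

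Peroxisomal beta-oxidation, upstream of Crot, had 12 tested genes, with 5 higher and 1 lower with permethrin and 7 higher and 1 lower with clofibrate. Of all genes, 1.28% were called higher and 0.85% lower with permethrin, and 3.22% and 3.8% with clofibrate. Ehhadh, the peroxisomal bifunctional enzyme, averaged 7325 ± 245 with permethrin, 8436 ± 1009 with clofibrate and 2557 ± 194 in controls. It rose by 1.52 with permethrin (limma adjusted p = 3.62e-05) and by 1.72 with clofibrate (limma adjusted p = 5.68e-06). Eci2 rose by 0.87 with permethrin (limma adjusted p = 0.00191) and by 1.38 with clofibrate (limma adjusted p = 3.71e-05). Decr2, a peroxisomal dienoyl-CoA reductase, rose by 1.35 with clofibrate (limma adjusted p = 0.0074), against 0.44 with permethrin (limma adjusted p = 0.463), and the difference between the treatments, -0.91, was not called (limma adjusted p = 0.141). Between the treatments 0 peroxisomal genes were called, with 3 at an unadjusted limma p under 0.05, against 1624 of all 12466 genes. The 6 calls with permethrin became 3 without control replicate 1, control replicate 2 or permethrin replicate 3, and the 8 with clofibrate became 5 without clofibrate replicate 3. The gene that fell in both was Pecr, a trans-enoyl-CoA reductase that lengthens rather than breaks down acyl chains, named after its values were seen (-0.52 with permethrin, limma adjusted p = 0.0166, and -0.48 with clofibrate, limma adjusted p = 0.0102).

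Median log2 changes for permethrin and clofibrate against controls were 0.04 and 0.23 in the malonyl-CoA list, 0.34 and 0.66 for the synthetases, 0.25 and 0.62 in mitochondrial and 0.54 and 0.77 in peroxisomal oxidation, beside -0.04 over all genes in both. The plot of pathway lists shows the members beside these genes. Single members of the lists were spread widely around these medians.

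**Figure D4:**
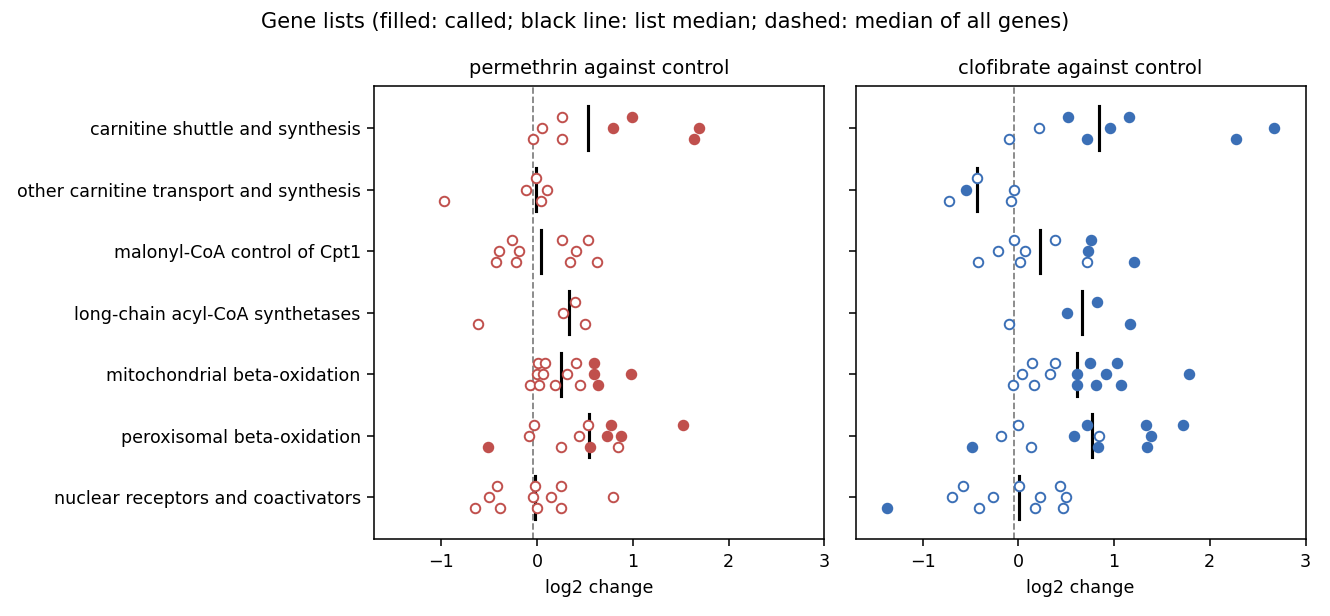
Log2 change of every tested gene in the carnitine set and the related lists, with permethrin against control in 1 panel and clofibrate against control in the other. Filled points passed an adjusted p of 0.05, the black line is the median of a list and the dashed line the median of all genes, -0.04 in both panels. The carnitine medians lie at 0.53 with permethrin and 0.84 with clofibrate.

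Of 11 tested nuclear receptors and coactivators, 0 were called with permethrin, with 4 at an unadjusted limma p under 0.05, against 1968 of all 12466 genes. At that unadjusted level clofibrate gave 7, against 2624 of all genes. With clofibrate 1 was called lower, where 3.8% of all genes were. That was Ppard, a receptor related to PPAR alpha, averaging 53.2 with permethrin, 25.0 with clofibrate and 68.8 in controls, a log2 change of -1.37 ± 0.34 with clofibrate (limma adjusted p = 0.0373). The list had 0 calls with clofibrate without control replicate 1, control replicate 2 or clofibrate replicate 1, and 2 without permethrin replicate 1. Ppara, which encodes PPAR alpha itself, averaged 844 ± 98.3 with permethrin, 1143 ± 127 with clofibrate and 844 ± 104 in controls. Its log2 differences were 0.00 ± 0.13 with permethrin (limma adjusted p = 0.996) and 0.44 ± 0.13 with clofibrate (limma adjusted p = 0.0888).

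Several measures moved with the groups. The summed signal of 6 hepatocyte markers was 56594 to 61135 with permethrin, 42146 to 55325 with clofibrate and 61575 to 66225 in controls. Of the 6, 3 were called lower with clofibrate, where 3.8% of all genes were, among them Alb (-0.42, limma adjusted p = 0.0248). Adipocyte markers had 1 of 3 above the filter, Cidec, and summed to 26.8 to 115 with permethrin, 33.5 to 98.1 with clofibrate and 10.8 to 17.4 in controls, while the defining gene Adipoq was below the filter on all arrays. Cidec averaged 51.2 ± 51.7 with permethrin, 53.6 ± 34.4 with clofibrate and 5.28 ± 3.46 in controls, and so passed the filter only through treated arrays. Its log2 difference was 2.62 with clofibrate (limma adjusted p = 0.0368) and 2.35 with permethrin (limma adjusted p = 0.108), given as a description. Of 4 brown adipocyte markers, 2 were tested. Elovl3 rose by 1.99 with permethrin (limma adjusted p = 0.0422) and by 1.62 with clofibrate (limma adjusted p = 0.0494). Dio2 was not called with either compound (limma adjusted p = 0.684 and 0.573), and Ucp1 and Cidea were below the filter on all arrays. Of all genes, 1.28% were called higher with permethrin and 3.22% with clofibrate. Of the pancreas markers, 1 of 3 tested, Cela1, fell by 2.66 on the log2 scale with permethrin (limma adjusted p = 6.02e-05) and by 2.67 with clofibrate (limma adjusted p = 3.71e-05). Cela2a and Prss2 were not called. Of all genes, 0.85% were called lower with permethrin and 3.8% with clofibrate. Tested markers numbered 2 for muscle, 6 for Kupffer, 5 for endothelial, 5 for stellate, 3 for bile duct and 3 for kidney cells. Of these, 0 were called. With so few tested, 0 calls lies near the share of all genes called. The 5 endothelial markers nevertheless summed to 1419 to 1642 with permethrin, 1212 to 1292 with clofibrate and 1554 to 1768 in controls. Of the 5, 3 lay lower on every clofibrate array than on any control array, as did 1943 of all 12466 genes. The median log2 change of the 5 with clofibrate was -0.44. The highest signal on an array was 12792 to 13408 with permethrin, 10714 to 12058 with clofibrate and 14387 to 14899 in controls, and the ratio of the 3′ to the 5′ Gapdh control probe set, a measure of RNA integrity, was 0.835 to 0.904 with permethrin, 0.856 to 0.894 with clofibrate and 0.912 to 1.04 in controls, so that both treated groups lay below all controls. The hybridization controls had a mean log2 signal of 9.80 to 10.16 with permethrin, 9.69 to 9.93 with clofibrate and 9.95 to 10.27 in controls, with no overlap between clofibrate and controls. The 18S ribosomal RNA probe set averaged 92.6 ± 42.0 with permethrin, 103 ± 20.7 with clofibrate and 199 ± 8.48 in controls. The part of these measures in the carnitine results was not tested.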

How the data were processed

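Liver RNA of 9 mice was measured on Affymetrix mouse arrays, 1 per mouse. Descriptions of the treated samples speak of rats, while organism, strain and array give mouse. The authors deposited linear signals in units of intensity, computed with MAS5 per the submitters' processing notes, and the version is not given in the sources used here. With 2% of probe sets trimmed from each end, every array had a mean of 100.001, so values are relative within an array. Of 45101 probe sets, 64 controls were left out. Probe sets above 15.6, the median signal, on at least 3 arrays were tested (24546). An offset of 3.35, the 20th percentile of signals, was added before log2. A fold change is on that scale and understates changes of dim genes.

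All 9 arrays entered a linear model with a mean per group in limma 3.58.1 (R 4.3.3; data.table was at 1.17.8), with an intensity trend, two-sided tests and Benjamini-Hochberg adjustment within each comparison. In the text, ± is the SD for signals and the standard error for log2 changes, n = 3, and 3 arrays per group limit the precision. The code was tested on simulated data. Members, lists and tests were chosen with earlier results of these data known. Named genes were all members, up to 3 genes per list with the largest called changes, and a few genes always given, Ppara among them. The labels do not say that replicate numbers pair mice, so no pairing was used. Same-numbered replicates deviated with correlations of -0.109 to 0.113. Alternatives covered offset, normalization, filter, variance model, weights, arrays used, probe set and a replicate block. Genes with no probe set of their own, and 0 columns of no sample, were not analysed here. Promoters are RefSeq's, and only bases before the start are printed.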

Additional observations from a re-analysis of the deposited data

Results flagged for a closer look

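The difference between permethrin and clofibrate passed limma's test on 1 probe set each of Crat and Slc22a5. For the brightest Crat probe set the log2 difference was -0.98, and for the dimmer Slc22a5 probe set it was -1.02, both lower with permethrin. The other probe sets of these genes did not pass that test.

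A signal outside the comparisons came from the probe set assigned to Gm44502, Cpt1b and Chkb together, which cannot be attributed to any of these genes. It averaged 38.7 ± 3.08 with permethrin, 227.6 ± 36.1 with clofibrate and 18.6 ± 4.24 in controls (SD, n = 3 each). The arrays gave 41.0, 35.2 and 39.9 with permethrin, 186, 245 and 251 with clofibrate, and 13.8, 21.7 and 20.4 in controls, with no overlap of groups. Its log2 change was 0.95 ± 0.19 with permethrin (limma adjusted p = 0.0356) and 3.40 ± 0.19 with clofibrate (limma adjusted p = 4.05e-06). Permethrin minus clofibrate was -2.45 ± 0.19 (limma adjusted p = 0.000343). The control arrays alone would not have passed this probe set for testing, so its rise is a description. Which of the 3 genes carries this signal was not tested.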

How the results depend on the processing

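With 21 alternatives to each comparison, each on the brightest probe set of a gene, between 3 and 4 members were called with permethrin and between 4 and 7 with clofibrate, all higher. Between the treatments, 1 member was called as reported, 2 with an offset of 16, quantile normalization, cyclic loess or the replicate block, 3 with array weights, and 0 with median centring or without the intensity trend. Leaving out each array gave 0 to 1, the 0 without clofibrate replicate 3. The replicate block kept 4 and 6 calls against controls. Crat, Slc22a5 and Slc25a20 were called with both compounds under all 21, and Cpt2 with clofibrate. The permethrin call of Cpt2 was also lost with median centring (limma adjusted p = 0.0658) and without the trend (0.106), the clofibrate call of Crot likewise (0.0691 and 0.111), and Crat between the treatments likewise (0.0839 and 0.0845). Scaling to the hybridization controls moved the median gene by 0.15 with permethrin, 0.33 with clofibrate and -0.19 between them, and median centring by 0.11, 0.08 and 0.02.

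Among the members, signs turned only in uncalled differences. For Slc25a20 between the treatments the log2 difference was -0.022 with quantile normalization, -0.16 with the hybridization controls, -0.055 with cyclic loess, -0.027 with array weights and -0.35 on its second probe set. For Bbox1 there it was -0.14 with the hybridization controls, -0.021 with cyclic loess and -0.27 on its second probe set, and for Cpt2 it was 0.26 on its dimmer set. Tmlhe with permethrin gave 0.066 with median centring, 0.11 with the hybridization controls, and 0.097 and 0.067 on other probe sets. Tmlhe with clofibrate gave 0.23 with the hybridization controls and 0.12 and 0.030 on other sets. Between the treatments Tmlhe gave -0.13 with the hybridization controls and -0.028 on another set. Cpt1a with permethrin gave -0.11 on its noisier set. Leaving out each array spanned -0.036 to 0.14 for Cpt1a with permethrin, -0.10 to 0.10 for Slc25a20 between the treatments, and for Tmlhe -0.13 to 0.11 with permethrin, -0.26 to 0.10 with clofibrate and -0.14 to 0.22 between them. The cause was not tested.

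Calls of the lists ranged over all alternatives from 1 to 5 (mitochondrial oxidation) and 2 to 7 (peroxisomal oxidation) with permethrin, and with clofibrate from 7 to 11, 5 to 9, 1 to 5 (malonyl-CoA), 1 to 3 (synthetases), 0 to 4 (nuclear receptors) and 0 to 1 (other carnitine genes). Single arrays alone gave 1 to 5 and 3 to 6 with permethrin for the oxidation lists, and with clofibrate 7 to 9, 5 to 8, 1 to 3, 1 to 3, 0 to 2 and 0 to 1. Higher against lower calls over all probe sets were 248 and 147 with permethrin and 696 and 688 with clofibrate, against 191 and 36 and 539 and 267 with median centring, and 228 and 29 and 1797 and 124 with the hybridization controls. Between the treatments they were 81 and 55, against 39 and 15 with median centring and 16 and 64 with the hybridization controls.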
